A study of Caenorhabditis elegans with 2 samples.

Results

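Argonaute proteins hold a small RNA and are guided by it to transcripts with matching sequence. Caenorhabditis elegans has an unusually large family. ALG-1 and ALG-2 carry microRNAs, PRG-1 carries piRNAs, RDE-1 receives the first siRNAs cut from double-stranded RNA taken up from food, and ERGO-1 carries endogenous siRNAs of oocytes and embryos. CSR-1 and the worm-specific Argonautes (WAGOs) HRDE-1, PPW-1, PPW-2 and WAGO-1 act mainly in the germline with secondary siRNAs, which RNA-dependent RNA polymerases make antisense to a transcript. The genes for these proteins can themselves be matched by small RNAs, and that is what was counted here. The values are small RNAs against the Argonaute genes, not levels of their transcripts or proteins.

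The 10 genes hrde-1, csr-1, prg-1, ergo-1, alg-1, alg-2, rde-1, ppw-1, ppw-2 and wago-1 were taken by name from the 45510 genes listed, and all 10 were found. Small RNAs had been recovered with anti-FLAG beads from lysates of embryos whose strains carried 3xflag::gfp::nrde-3, a tagged form of NRDE-3, the Argonaute that brings siRNAs into nuclei of somatic cells. The RNAi library came from eri-1(mg366);dpy-13(e458) animals carrying the tagged protein and fed bacteria making double-stranded RNA of dpy-13, a cuticle collagen gene. eri-1 encodes an exonuclease whose loss makes worms more sensitive to RNAi. The wild-type library was made from N2 worms carrying the tagged protein and fed OP50 bacteria, and both were kept at 20 °C. Each group is a single library, so the conditions could not be tested and no p-value is given. Strain, food and the making of the library cannot be told apart. In whole embryos, more small RNA per cell and more cells that carry it also cannot be told apart. The promoter and copy number of the tagged gene are not given in the sources used here.

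The RNAi library held 5537671 counted reads and the wild-type library 7693320. Levels are reads per 1000000 counted reads (RPM), so the level minimum of 10 RPM used below is worth 55.4 reads in the RNAi library and 76.9 in the wild-type library. Antisense reads outside structural RNA (ribosomal, transfer, small nuclear, small nucleolar and microRNA genes) made up 7.69% of the RNAi library and 17.3% of the wild-type library. dpy-13, the RNAi target, had 115 antisense reads in the RNAi library and 1 in the wild-type library. Most genes had a higher antisense RPM in the RNAi library: over the 5751 genes with 10 or more antisense reads in all, called measured here, the median ratio was 11.9-fold, and 95.0% had a ratio above 1. Each ratio below is therefore set beside that median. The median depends on the read minimum: over the 13195 genes with 1 or more antisense reads it was 6.95-fold. Intervals are 95% and cover counting error only.

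The 10 Argonaute genes lie on 6 chromosomes, 4 of them on chromosome I. All 10 had more antisense RPM in the RNAi library than in the wild-type library, but few reads lay behind each value. Their antisense levels ran from 1.08 to 35.4 RPM in the RNAi library and from 0 to 1.95 RPM in the wild-type library. Of the 10 genes, 9 had a level in the RNAi library above that of every Argonaute gene of the set in the wild-type library. The exception was ppw-1. Measured genes in general were higher in the RNAi library, by 11.9-fold at the median. How many other genes passed the same level was not counted. Summed over the 10 genes, 681 antisense reads were counted in the RNAi library and 63 in the wild-type library. That is 0.160% of antisense reads outside structural RNA in the RNAi library and 0.00473% in the wild-type library. The summed ratio was 15.02-fold (11.6 to 19.8), and without hrde-1, the gene with most reads, it was 12.03-fold (9.11 to 16.2), next to the all-gene median. The 2 measures differ, since a sum weighs reads and the median weighs genes alike. Summed over all genes outside structural RNA, the ratio was 0.445.

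**Figure D1:**
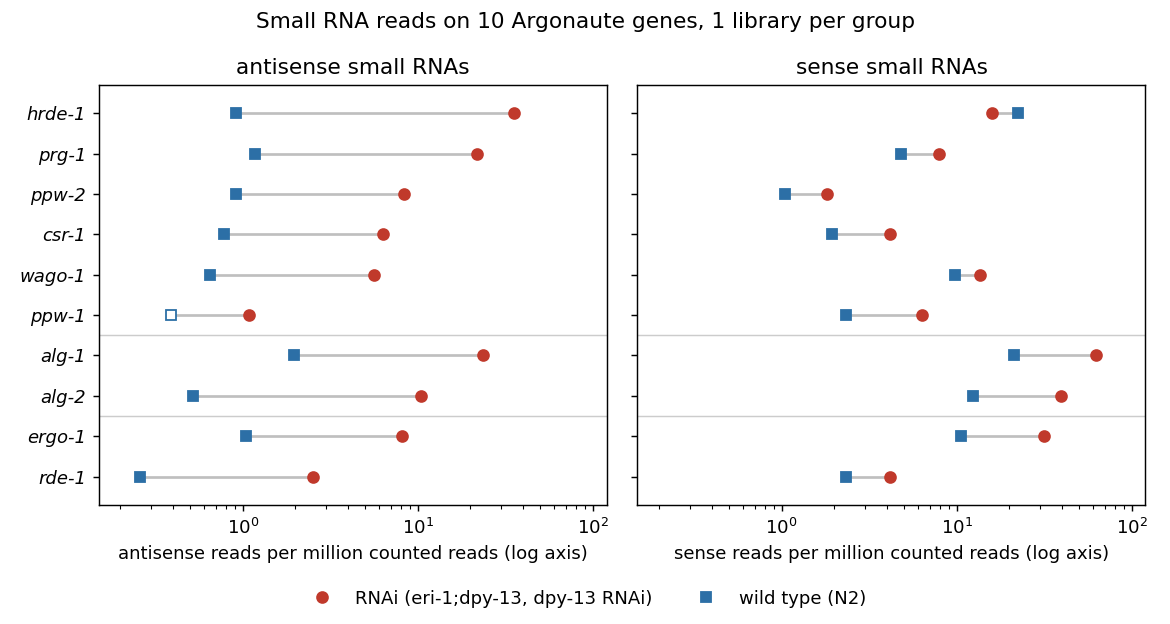
Antisense reads (left) and sense reads (right) per 1000000 counted reads (RPM) on a log axis for the 10 Argonaute genes, with circles for the RNAi library and squares for the wild-type library. Lines between groups of rows separate germline, microRNA and primary siRNA Argonautes. The open square is the upper limit of 0.390 RPM that a count of 0 allows for ppw-1. All 10 circles lie right of their squares for antisense reads, and hrde-1 alone has its circle left of its square for sense reads.

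To be called, a gene needed 10 RPM or more in one library, a difference of 4-fold or more, and an interval that stayed past 2-fold. By that rule 4 of the 10 genes (hrde-1, prg-1, alg-1 and alg-2) were called higher in the RNAi library and 0 lower, beside 18.6% of measured genes called higher and 2.63% called lower. Of the 10, 9 were measured, and 5 of these 9 passed both ratio limits but lay under 10 RPM. The share of all measured genes passing both ratio limits at any level was not counted, and the median measured gene itself exceeded 4-fold. The median log2 ratio was 3.11 over the 9 measured genes and 3.33 over all 10, beside 3.58 for all measured genes. The call depended on the scaling. Under TMM scaling, which places the median gene at a log2 ratio of 0.01, none of the 10 genes met the rule, and over all measured genes the split of 1069 higher and 151 lower became 27 and 244. Median-of-ratios scaling gave 50 higher and 215 lower genes, and 1 of the 10, hrde-1, then met the rule.

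Among the germline Argonautes, hrde-1 stood out on both strands. hrde-1 (chromosome III, 4172337 to 4176159, minus strand) encodes the nuclear Argonaute needed for silencing inherited through the germline. It had 196 antisense reads in the RNAi library and 7 in the wild-type library, which is 35.4 and 0.910 RPM. The ratio was 38.9 (18.5 to 98.0). This was the only gene of the 10 whose interval lay wholly above the all-gene median, which 6.21% of measured genes did. The other 9 intervals held that median. Set against the 6.95-fold median of genes with 1 or more antisense reads, the intervals of 4 of the 10 genes (hrde-1, prg-1, alg-1 and alg-2) lay wholly above it, beside 19.7% of measured genes, and all 9 measured genes had a ratio above it. In the order of all genes outside structural RNA hrde-1 was at place 220 in the RNAi library and 1157 in the wild-type library.

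In RPM, sense reads on hrde-1 lay the other way. They numbered 88 in the RNAi library and 173 in the wild-type library, which is 15.9 and 22.5 RPM. Their ratio was 0.707 (0.540 to 0.919), a log2 ratio of −0.497. This depends on the scaling: scaling by reads outside structural RNA raises log2 ratios by 0.378. Raised by that amount, the upper bound of 0.919 passes 1, so the interval then holds 1, while the ratio itself stays below 1. With RPM, only 0.975% of the 7591 genes with 10 or more sense reads had an interval wholly below 1, and 69.3% had one wholly above it. The share of antisense among all reads on hrde-1 was 69.0% (63.4 to 74.1, Wilson interval) in the RNAi library and 3.89% (1.90 to 7.81) in the wild-type library. A share of this kind compares 2 strands of 1 gene within a library and does not depend on the scaling between libraries.

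prg-1 (chromosome I, 7585329 to 7588367, minus strand), the Piwi gene, came next among the germline genes. It had 120 antisense reads in the RNAi library and 9 in the wild-type library, which is 21.7 and 1.17 RPM, 18.5-fold higher (9.44 to 41.5). Its sense reads numbered 44 in the RNAi library and 37 in the wild-type library, a ratio of 1.65 (1.04 to 2.63). Reads on prg-1 were 73.2% antisense (65.9 to 79.4) in the RNAi library and 19.6% (10.7 to 33.2) in the wild-type library.

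ppw-2 (chromosome I, 5158511 to 5162232, minus strand), also called wago-3, had the highest antisense share of the 10 in both libraries. Its 46 antisense reads in the RNAi library and 7 in the wild-type library gave 8.31 and 0.910 RPM, a ratio of 9.13 (4.09 to 24.0). With 10 sense reads in the RNAi library and 8 in the wild-type library, it had the fewest sense reads of the 10. The antisense share was 82.1% (70.2 to 90.0) in the RNAi library and 46.7% (24.8 to 69.9) in the wild-type library, where only 15 reads lay behind it.

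csr-1 (chromosome IV, 7957267 to 7962157, plus strand) encodes the Argonaute whose siRNAs match genes expressed in the germline. It had 35 antisense reads in the RNAi library and 6 in the wild-type library, which is 6.32 and 0.780 RPM, 8.10-fold higher (3.37 to 23.6). Sense reads numbered 23 in the RNAi library and 15 in the wild-type library. Its antisense share was 60.3% (47.5 to 71.9) in the RNAi library and 28.6% (13.8 to 49.96) in the wild-type library, so the 2 intervals overlapped.

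The 2 remaining WAGO genes had mostly sense reads in both libraries. wago-1 (chromosome I, 7235384 to 7238792, plus strand), a WAGO of the germline's P granules, had 31 antisense reads in the RNAi library and 5 in the wild-type library, a ratio of 8.61 (3.32 to 28.4). Its sense reads numbered 75 in the RNAi library and 75 in the wild-type library, a ratio of 1.39 (0.995 to 1.94). The antisense share of wago-1 was 29.2% (21.4 to 38.5) in the RNAi library and 6.25% (2.70 to 13.8) in the wild-type library.

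ppw-1 (chromosome I, 4185174 to 4189956, plus strand), a gene needed for RNAi in the germline of worms fed double-stranded RNA, had the fewest antisense reads. There were 6 in the RNAi library and 0 in the wild-type library, at least 2.78-fold higher when the 0 is set at 3 reads in that library. With the counting error of both counts, the exact interval of the ratio starts at 1.64. Beside them stood 35 sense reads in the RNAi library and 18 in the wild-type library. ppw-1 was the only gene of the 10 that did not reach 10 antisense reads.

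The microRNA Argonautes had many sense reads in both libraries. alg-1 (chromosome X, 13949110 to 13956261, plus strand) had 130 antisense reads in the RNAi library and 15 in the wild-type library, which is 23.5 and 1.95 RPM, 12.04-fold higher (7.04 to 22.1), almost that of the median gene. In the wild-type library it was the member with most antisense reads. alg-1 also had the most sense reads of the 10 in the RNAi library, 346, against 164 in the wild-type library, a ratio of 2.93 (2.43 to 3.55). The median gene had a sense ratio of 2.89.

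alg-2 (chromosome II, 873212 to 879885, plus strand), which acts redundantly with alg-1 in the embryo, had 58 antisense reads in the RNAi library and 4 in the wild-type library. In RPM these were 10.5 and 0.520, a ratio of 20.1 (7.46 to 76.4), and its 58 reads lay just over the 55.4 that the level minimum asks for. Sense reads on alg-2 numbered 219 in the RNAi library and 96 in the wild-type library, a ratio of 3.17 (2.48 to 4.07). Antisense reads were a minority on both genes. On alg-1 they made up 27.3% (23.5 to 31.5) in the RNAi library and 8.38% (5.14 to 13.4) in the wild-type library. On alg-2 they made up 20.9% (16.6 to 26.1) in the RNAi library and 4% (1.57 to 9.84) in the wild-type library.

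The 2 Argonautes of primary siRNAs had antisense ratios below the 11.9-fold median of measured genes, with intervals that held it. ergo-1 (chromosome V, 1008803 to 1018352, plus strand) had 45 antisense reads in the RNAi library and 8 in the wild-type library, which is 8.13 and 1.04 RPM, 7.81-fold higher (3.65 to 19.2). Its sense reads resembled those of the microRNA Argonautes, with 174 in the RNAi library and 82 in the wild-type library, a ratio of 2.95 (2.25 to 3.88). Antisense reads were 20.5% (15.7 to 26.4) of those on ergo-1 in the RNAi library and 8.89% (4.57 to 16.6) in the wild-type library.

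rde-1 (chromosome V, 9987916 to 9991642, minus strand), which the RNAi pathway needs to act on dsRNA from food, had 14 antisense reads in the RNAi library and 2 in the wild-type library, a ratio of 9.72 (2.23 to 88.2). Sense reads on rde-1 numbered 23 in the RNAi library and 18 in the wild-type library. Its antisense share was 37.8% (24.1 to 53.9) in the RNAi library and 10.0% (2.79 to 30.1) in the wild-type library.

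**Figure D2:**
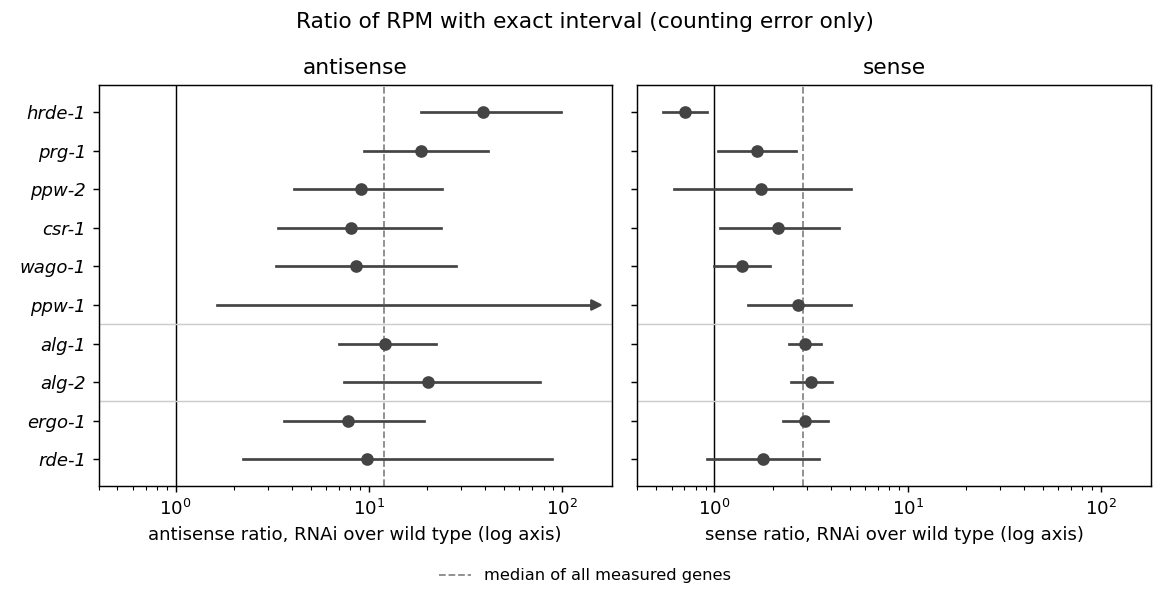
Ratios of RPM, RNAi over wild type, on a log axis for antisense reads (left) and sense reads (right), with the exact 95% interval of counting error as a bar. The solid line marks equal levels and the dashed line the median of all measured genes, 11.9 for antisense and 2.89 for sense. The arrow for ppw-1 marks an interval with no upper bound. Only the antisense interval of hrde-1 lies wholly above the dashed line, and only its sense interval lies wholly below 1.

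Grouped by function, the genes had overlapping intervals of the antisense ratio, and the summed sense ratio of the germline genes was lower than the other sums. The 6 germline genes together had 434 antisense reads in the RNAi library and 34 in the wild-type library, a ratio of 17.7 (12.5 to 25.9). Without hrde-1 it was 12.2 (8.21 to 19.0). For the 2 microRNA genes the sums were 188 and 19 reads, a ratio of 13.7 (8.56 to 23.3). The 2 primary siRNA genes gave 59 and 10 reads, a ratio of 8.20 (4.16 to 17.97). All these intervals held the ratio of the median gene except that of the germline genes with hrde-1.

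The worm-specific genes, a grouping by sequence family that cuts across function, were led by hrde-1. The 4 WAGO genes hrde-1, ppw-1, ppw-2 and wago-1 had 279 antisense reads in the RNAi library and 19 in the wild-type library, a ratio of 20.4 (12.8 to 34.4). Without hrde-1 the ratio was 9.61 (5.22 to 19.3), and with csr-1 and rde-1 added to the 4 it was 16.9 (11.4 to 26.003).

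On the sense strand the germline genes had 275 reads in the RNAi library and 326 in the wild-type library, a ratio of 1.17 (0.995 to 1.38), or 1.70 (1.36 to 2.12) without hrde-1. The microRNA genes had 565 and 260 sense reads, a ratio of 3.02 (2.60 to 3.51), and the primary siRNA genes 197 and 100, a ratio of 2.74 (2.14 to 3.52). The interval of the germline sum lay wholly below those of both other sums, also without hrde-1. Single genes overlapped: the sense ratio was 2.70 (1.49 to 5.07) for ppw-1 and 2.13 (1.06 to 4.39) for csr-1, and 1.78 (0.917 to 3.49) for rde-1. By the same size limits, 0 of the 10 genes were called on the sense strand, beside 7.54% of genes called higher and 0.263% called lower. Of the 10 genes, 6 had a sense interval wholly above 1, beside 69.3% of genes with enough sense reads. For 3 of the 10, hrde-1, prg-1 and wago-1, the sense interval lay wholly below the ratio of the median gene, beside 12.5% of genes with enough sense reads.

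Within the RNAi library the summed reads of the germline genes were more often antisense than those of the other functions. Antisense reads were 61.2% (57.6 to 64.7) of the reads on the germline genes, 24.97% (22.01 to 28.2) on the microRNA genes and 23.05% (18.3 to 28.6) on the primary siRNA genes. In the wild-type library the shares were 9.44% (6.84 to 12.9), 6.81% (4.40 to 10.4) and 9.09% (5.01 to 15.9), with overlapping intervals. The germline share rested on 4 genes with an antisense majority in the RNAi library (hrde-1, prg-1, ppw-2 and csr-1). The shares of wago-1 and ppw-1 lay below the 37.8% of rde-1. Among the 4607 genes outside structural RNA with 10 or more reads in each library, 28.2% had an antisense majority in the RNAi library and 11.9% in the wild-type library.

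The antisense share was higher in the RNAi library for all 10 genes, as it was for 84.1% of those 4607 genes. The median share of the 4607 genes was 31.4% in the RNAi library and 8.33% in the wild-type library. Of the 10 genes, 5 lay above the median in the RNAi library and 6 in the wild-type library. For 6 of the 10 (hrde-1, prg-1, ppw-2, wago-1, alg-1 and alg-2) the 2 Wilson intervals did not overlap, beside 34.9% of all such genes, and the reverse, found in 2.80% of them, occurred for 0 of the 10. The ratio of antisense to sense reads was 55.05 times higher in the RNAi library for hrde-1, 11.2 times for prg-1 and between 2.65 and 6.36 times for the 7 other genes with antisense reads in both libraries. The value for hrde-1 rests on 7 antisense reads in the wild-type library, and the change was not computed over all genes. Among the further Argonaute genes taken up below it was 31.2 times for nrde-3, 18.1 for alg-5 and 17.25 for wago-2. For wago-4 it was 11.6 times, for prg-2 4.16 and for vsra-1 1.6.

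**Figure D3:**
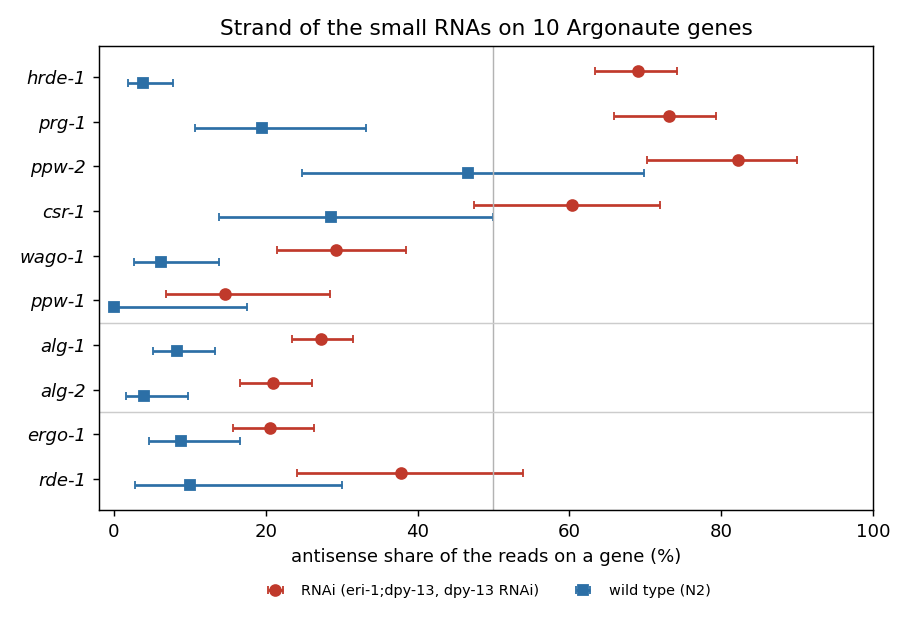
Antisense reads as a percentage of all reads on each of the 10 Argonaute genes, with Wilson 95% intervals, circles for the RNAi library above squares for the wild-type library. The vertical line marks 50%. In the RNAi library hrde-1, prg-1, ppw-2 and csr-1 lie above 50%, at 60.3% to 82.1%, and in the wild-type library none of the 10 genes does.

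To compare genes with each other, antisense RPM was divided by coding length. In the RNAi library the order was hrde-1 with 11.4 RPM per kb (9.89 to 13.1), prg-1 with 8.77 (7.27 to 10.5), alg-1 with 7.65 (6.39 to 9.08), alg-2 with 3.84 (2.91 to 4.96) and ppw-2 with 2.84 (2.08 to 3.79). ergo-1 followed with 2.42, csr-1 with 2.05, wago-1 with 1.97, rde-1 with 0.826 and ppw-1 with 0.407 RPM per kb. Neighbours in this order differed beyond counting error at 3 steps, hrde-1 over prg-1 (1.304-fold, 1.03 to 1.65), alg-1 over alg-2 (1.99-fold, 1.45 to 2.77) and wago-1 over rde-1 (2.39-fold, 1.23 to 4.86).

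In the wild-type library the levels ran from 0.635 RPM per kb for alg-1 to 0 for ppw-1, and no neighbours differed beyond counting error. hrde-1 was in the fifth place there, with 0.294 RPM per kb. The order depended on the length used. Dividing by the length of all exons instead, untranslated parts included, lowered alg-1, which has 6696 bases of exon and 3069 of coding sequence, to 3.51 RPM per kb in the RNAi library. alg-1 was in the third place in that library on both lengths. Per kb of exon the step between hrde-1 and prg-1 no longer exceeded counting error (1.23-fold, 0.976 to 1.56), while prg-1 lay 2.32-fold (1.79 to 2.99) over alg-1.

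Several of the genes have more than 1 transcript in the tables, and reads shared between isoforms are placed on one of them by the aligner. For alg-1 the 2 isoforms had 66 and 64 antisense reads in the RNAi library and 7 and 8 in the wild-type library, while the second isoform held 232 of the 346 sense reads in the RNAi library and 122 of 164 in the wild-type library. For csr-1 the isoforms had 14 and 21 antisense reads in the RNAi library and 3 and 3 in the wild-type library. Related Argonaute genes share stretches of sequence, and how reads from such stretches were split between alg-1 and alg-2, or between prg-1 and its paralogue prg-2, was not tested. prg-1 and ergo-1 each overlap the end of a gene on the other strand, by 12 and 17 bases. On the same strand, csr-1 shares 438 exon bases with frpr-10, on which 0 reads were counted in either library. alg-1 shares 96 exon bases with the small nucleolar RNA gene K02B9.10, which had 3 sense reads in the RNAi library and 2 in the wild-type library.

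The rest of the family was read from a list of 13 further Argonaute genes. Of these, 6 were measured and 3 (nrde-3, wago-4 and wago-2) were called higher in the RNAi library, with 0 lower, beside 18.6% of measured genes called higher and 2.63% lower. Their median log2 ratio was 3.78 over the 6 measured genes. nrde-3 (chromosome X, 372235 to 376900), whose tagged copy was the protein recovered, had 10360 antisense reads in the RNAi library and 319 in the wild-type library, a ratio of 45.1 (40.4 to 50.6). It also had 46985 sense reads in the RNAi library and 45147 in the wild-type library.

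Among the other family members, the germline gene wago-4, which takes part in inherited silencing, had the most antisense reads after nrde-3. It had 162 antisense reads in the RNAi library and 17 in the wild-type library, a ratio of 13.2 (8.02 to 23.3), with 45 and 55 sense reads. wago-2, annotated as a pseudogene, counted 69 and 6 antisense reads, 15.98-fold higher (6.98 to 45.0), with 6 and 9 sense reads. alg-5, a germline Argonaute related to alg-1, had 26 and 2 antisense reads, and prg-2, annotated as a pseudogene, had 17 and 3.

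vsra-1 had no excess in the RNAi library. Its antisense reads numbered 7 in the RNAi library and 10 in the wild-type library, a ratio of 0.972 (0.314 to 2.83), with an interval wholly below the all-gene median, as for 12.1% of measured genes. Summed over the 12 further genes without nrde-3, antisense reads numbered 285 in the RNAi library and 43 in the wild-type library, a ratio of 9.21 (6.66 to 13.003). Antisense reads made up 65.5% of the reads on these 12 genes in the RNAi library and 22.2% in the wild-type library.

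For other genes of small RNA pathways the median and the summed antisense ratio lay near the median of all measured genes, while single ratios varied. The lowest among those measured was 2.13 (1.32 to 3.50) for rde-4, whose protein binds double-stranded RNA. At the upper end were 28.1 for sid-1, 44.5 (7.43 to 1810) for nrde-4 with 32 reads against 1, and rde-2 with 12 against 0. Of 47 pathway genes outside the Argonaute family, 36 were measured, 12 were called higher in the RNAi library and 0 lower, beside the same 18.6% and 2.63% of measured genes. The median log2 ratio of the 36 was 3.60. Their summed ratio was 12.3 (10.9 to 13.9). eri-6, a helicase gene of the ERGO-1 pathway, had 623 antisense reads in the RNAi library and 67 in the wild-type library, a ratio of 12.9 (10.03 to 16.9). ain-1, which encodes a partner of the microRNA Argonautes, had 206 and 12, a ratio of 23.8 (13.4 to 46.9).

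sid-1, which encodes a channel for double-stranded RNA, had 162 antisense reads in the RNAi library and 8 in the wild-type library, a ratio of 28.1 (13.9 to 66.3). nrde-2, a factor that acts with the nuclear Argonautes NRDE-3 and HRDE-1, had 146 and 10, a ratio of 20.3 (10.7 to 43.2). rrf-2, a gene of the RNA-dependent RNA polymerase family, had 108 and 9, and rde-11, needed for amplification of siRNAs, had 106 and 7. Of the measured pathway genes, ain-1 and sid-1 had intervals wholly above the all-gene median, as 6.21% of measured genes did, and 1, rde-4, had an interval wholly below it, as 12.1% did.

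**Figure D4:**
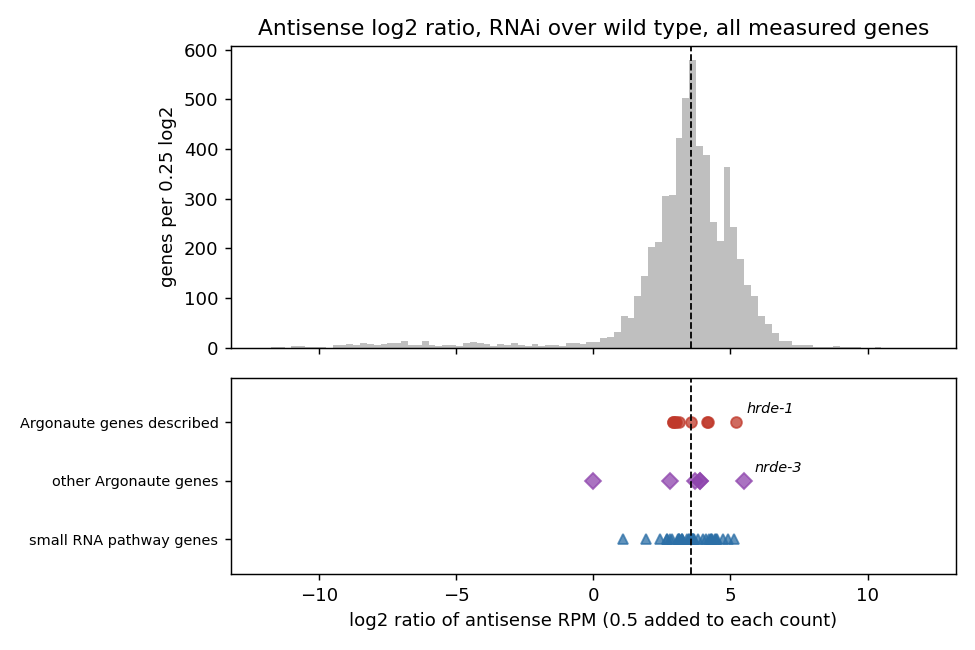
The histogram shows the antisense log2 ratio, RNAi over wild type, of the 5751 measured genes in steps of 0.25, and the points below show the measured members of 3 gene lists. The dashed line marks the all-gene median of 3.58. The 9 measured Argonaute genes described here lie between 2.89 and 5.19, with hrde-1 at the right, and nrde-3 lies right of the other 5 points of its row.

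By its 4 values (log2 of RPM + 1, antisense and sense, in both libraries) the genes nearest to hrde-1 among 44205 others outside structural RNA were 3 histone genes. his-20 lay at a distance of 0.59, his-52 at 1.05 and his-54 at 1.15 log2 units. his-20 had 196 antisense reads in the RNAi library and 6 in the wild-type library, with 78 and 115 sense reads. Histone genes of one type are nearly identical, so reads on single copies are uncertain.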

How the data were processed

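Small RNAs bound to tagged NRDE-3 were counted in 2 libraries. According to the design text, the authors mapped the reads with Bowtie2 (default settings, version not given in the sources used here) to WS243 transcripts. The authors deposited raw counts per transcript on the sense and antisense strand. The sense column is the transcript's own strand: it held 99.5% of microRNA gene reads in the RNAi library and 99.9% in the wild-type library. Lines lacking the antisense count, 3 in the RNAi library and 2 in the wild-type library, were left out.

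Isoforms were summed per gene. Of 45510 genes, 44852 matched the Ensembl 115 annotation (WBcel235) by identifier, which gave names, positions and lengths. RefSeq (WBcel235) gave the names of wago-2 and 3 histone genes, and prg-2 and wago-11 were matched by sequence name. The tables hold no coordinates. Of the names listed, cde-1 was not matched and was not analysed here. Sequences were not used here.

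Without replicates edgeR's test could not be run. Ratios carry exact binomial (Clopper-Pearson) intervals, and log2 ratios have 0.5 added to each count. A count of 0 allows up to 3 reads. Intervals cover counting error only, since amplified reads without molecular identifiers are not independent molecules. The code was tested on simulated data. Named genes were the 10 Argonaute genes, further Argonaute genes with 10 or more antisense reads, the 6 pathway genes of highest level, dpy-13, and the 3 genes nearest to hrde-1; rde-4 was named after its values were seen. The gene set and lists were chosen with earlier results of these data known, and the antisense share was added after the counts were seen. Alternatives changed the scaling (edgeR 4.0.16 TMM, DESeq2 1.42.0 size factors, reads outside structural RNA), read and level minimums, fold, added count and isoform handling. Python 3.11.15 with scipy 1.17.1 and R 4.3.3 were used.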

Additional observations from a re-analysis of the deposited data

How the results depend on the processing

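No paired analysis was possible because each group holds 1 library. Of the 10 Argonaute genes 4 were called higher, against 0 under TMM scaling, also with the level minimum kept in reads (a setting chosen after seeing the data), 1 under median-of-ratios scaling, 9 when scaled by reads outside structural RNA and 8 at a level minimum of 5 RPM. For the 13 further Argonaute genes 3 calls became 0, 0, 1 and 5 in the first 4 of these settings, and for the 47 pathway genes 12 became 0, 0, 0 and 34, with 27 at 5 RPM and 7 at a minimum of 100 reads. Scaling by reads outside structural RNA called 4828 of the 5751 measured genes higher, beside 1069 in the main setting. The level minimum was then worth 8.82 reads in the RNAi library. The share of all measured genes called at 5 RPM or at a minimum of 100 reads was not counted. No alternative gave a lower call among the 10 genes.

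Under TMM and median-of-ratios scaling the 9 measured genes had a median log2 ratio of −0.46 and −0.10 (reversed), and the summed antisense ratio was 1.26 and 1.63 for all 10 genes, 1.49 and 1.92 for germline, 1.16 and 1.49 for microRNA, 0.690 and 0.889 (reversed) for primary siRNA and 1.72 and 2.21 for WAGO genes. The summed sense ratio of 2.10 was 0.177 and 0.228 (reversed), 2.73 when scaled by reads outside structural RNA, and 1.84 without alg-1. The TMM and median-of-ratios factors came from antisense reads only and were not fitted to sense reads, whose all-gene median ratio was 2.89. The reversal of the sense sum therefore follows from the factors and is not a result about these genes. Single antisense log2 ratios reversed for csr-1 (−0.65 and −0.28), ergo-1 (−0.67 and −0.31), rde-1 (−0.56 and −0.19), ppw-2 (−0.46 and −0.10), wago-1 (−0.58 and −0.21) and, under TMM only, alg-1 (−0.022). These scalings shift every antisense log2 ratio by −3.57 and −3.20, so the order of the genes is the same by construction. With the all-gene median taken over genes with 1 or more reads (chosen after seeing the data), the genes of the 10 with an interval wholly above it numbered 4 instead of 1. Without hrde-1 the summed germline ratio was 12.2 and the antisense share of germline genes 56%. With 1 isoform per gene the antisense share of microRNA genes was 31.8%. Few wild-type reads, 0 to 15 per gene, limit every ratio.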
